A study of Danio rerio with 10 samples.

Results

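Collagen genes were followed in cells sorted from zebrafish hearts. They were taken by symbol, as every gene identifier whose name, ignoring case, reads col, a number, a, and a number, with at least 10 counts over the 10 libraries. Of 57 such genes 41 reached that minimum, among 19423 genes of any kind that did. They comprised 12 fibrillar collagens, 8 basement membrane collagens and 21 others. Of the basement membrane genes, 5 belonged to type 4 and the rest were multiplexins, types 15 and 18. The 16 genes under the minimum had from 0 to 8 counts in all, among them the type 7, type 19 and type 24 genes and col28a2a.

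The study compared heart cells that differ in cloche (clo), which encodes the transcription factor Npas4l, in 2 experiments. In the first, CD41+ cells carrying the Tg(CD41.eGFP) reporter were sorted from amputated hearts of 3 wild type and 3 clofv087b/+ (clo/+) samples. The sample labels place them 1 day after amputation, whereas the series text says 3 days. In the second, gata1a+ cells carrying Tg(gata1a:DsRed) were sorted 7 days after 4-HT (4-hydroxytamoxifen, which switches on Cre-ERT2) from 2 control and 2 Npas4l OE samples. The Npas4l OE samples carry 2 transgenes, Tg(gata1a:Cre-ERT2), in which the gata1a promoter drives the recombinase, and the cassette ubi:loxp-eGFP-stop-loxp-Npas4l, in which the ubi promoter drives Npas4l once the stop is removed. Control replicate 2 is labelled with the cassette alone and control replicate 1 as clofv087b/+, which conflicts with its title. All 10 samples are labelled platelets, each from 15 pooled ventricles and 6000 sorted cells. No amputation is given for the second experiment, and ages were not given in the sources used here.

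Gene counts per library ran from 6764258 to 13067068, of which 1436 to 2770 were collagen counts. Thrombocyte markers (fish thrombocytes are the counterpart of platelets) were all detected, 9 of 9, and summed to between 3178 and 10497 CPM (counts scaled to library size) over the libraries. Markers of other cells were present too, with 11 of 12 cardiomyocyte markers summing to between 18912 and 60488 CPM. The 14 fibroblast and epicardium markers, the cells best known for making fibrillar collagen, were all detected and summed to between 228 and 410.4 CPM, although LUM was at a group mean of 0.0494 to 1.35 CPM. The npas4l level did not separate the libraries labelled Npas4l OE (57.2 and 27.4 CPM) from the control (42.1 and 30.3 CPM), with a log2 fold change of 0.21 (edgeR quasi-likelihood test, Benjamini-Hochberg adjusted p = 0.826).

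Collagens are secreted proteins built from triple helices of alpha chains. Fibrillar collagens assemble into the fibres that give tissue its tensile strength and make up much of a scar, whereas type 4 forms the sheet-like network of basement membranes under endothelium and around muscle cells. The remaining types decorate fibrils, form beaded filaments or short networks, or span the cell membrane. In the injured heart collagen is deposited mainly by fibroblasts and epicardium-derived cells, and exposed collagen is a classical trigger of platelet adhesion.

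Collagen transcripts were a small part of every library. Summed over the 41 genes they reached 263, 175 and 197 CPM in the 3 wild type libraries and 197, 229 and 300.1 CPM in the clo/+ libraries. The sums were 248 and 296 CPM in control and 185 and 286 CPM in Npas4l OE. These ranges overlapped within both experiments. Because the samples are bulk, fewer cells of a collagen-making type and less collagen RNA per cell cannot be told apart.

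**Figure D1:**
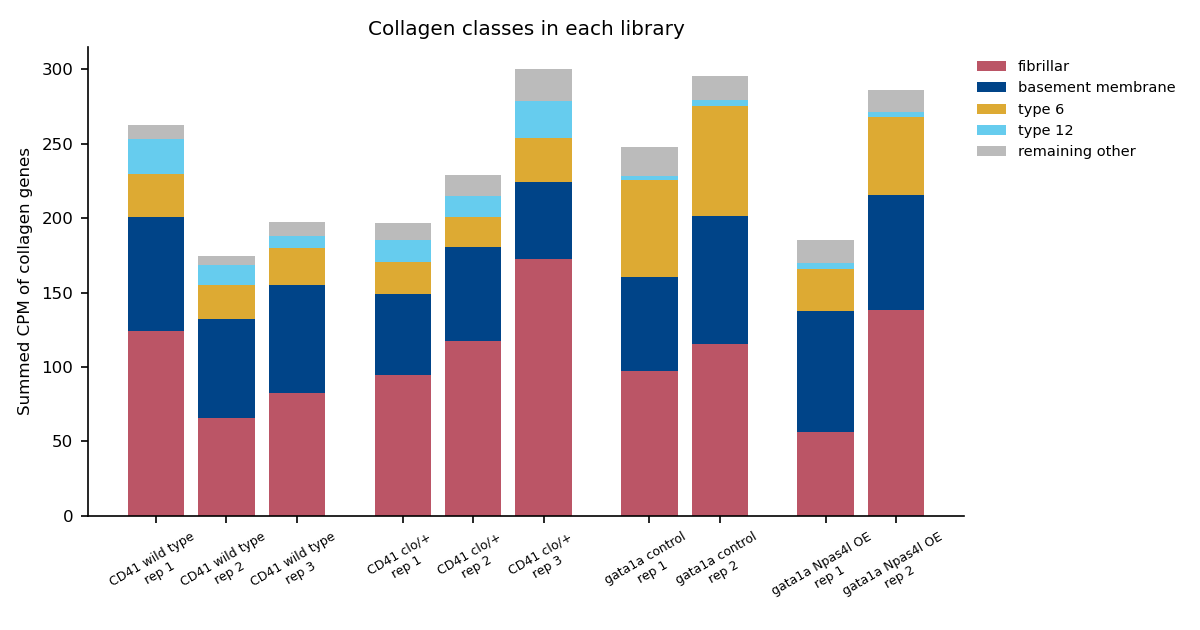
Summed CPM (counts scaled to library size) of collagen genes in each of the 10 libraries, as 1 stacked bar per library. The segments are fibrillar, basement membrane, type 6, type 12 and remaining other collagen genes. The other collagens are the type 6, type 12 and remaining segments together. They lie at 87.4 and 94.0 CPM in the gata1a control and at 47.3 and 70.8 CPM in Npas4l OE. In the CD41 libraries they lie between 42.4 and 75.7 CPM.

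A set of 13 members with a mean of at least 10 CPM in some group held 86.9% to 94.2% of the collagen counts of each library. They were col1a1a, COL1A1 and COL1A2 of type 1, COL5A1 and COL5A2 of type 5, COL4A1 and COL4A2, col6a1, COL6A2, COL6A3 and col6a4a of type 6, 1 of the pair of COL12A1 genes, and col23a1b. Between 30 and 36 of the 41 members had at least 1 count in a given library. The other 28 members stayed under a group mean of 10 CPM, and the highest group mean among them was 6.15 CPM, for col15a1b in Npas4l OE.

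In CD41+ cells, no collagen gene passed the threshold between clo/+ and wild type. Transcripts of the type 1 chains were at higher means in clo/+ and those of COL4A1 at a lower mean. The edgeR quasi-likelihood test, with Benjamini-Hochberg adjustment over all 13749 genes tested, called 0 of the 15 collagens that passed the filter on low counts, against 0.0145% of all genes (2 genes). DESeq2 also called 0 collagens. At an unadjusted p under 0.05, 3 collagens were higher and 2 lower, where 7.19% and 4.79% of all tested genes were. The groups did not overlap for 2 higher and 2 lower collagens, where 9.63% and 8.59% of all genes were so separated. The median log2 fold change was 0.34 over the 15 collagens and -0.0021 over all genes. The other 26 members had too few counts to be tested. No label says how the replicates were kept apart beyond being separate samples, so these p-values measure the spread between samples only.

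Among fibrillar collagens, the type 1 genes encode the main chains of fibres in scar and connective tissue, with a duplicated alpha-1 gene in the zebrafish. COL1A2, the alpha-2 chain, stood at 20.9, 12.5 and 15.4 CPM in wild type versus 23.3, 26.8 and 30.3 CPM in clo/+. All clo/+ libraries were above all wild type libraries. The log2 fold change was 0.71 ± 0.25 (SE), with an unadjusted p of 0.0114 and an edgeR adjusted p of 0.278. One alpha-1 gene, col1a1a, was at 16.2, 12.4 and 13.6 CPM in wild type versus 14.9, 26.6 and 32.4 CPM in clo/+. Here clo/+ replicate 1 fell within the wild type range while its 2 fellow libraries were above it. Its log2 fold change was 0.79 ± 0.29 (edgeR adjusted p = 0.283). The other alpha-1 copy, COL1A1, was at 29.8, 14.3 and 17.9 CPM against 25.8, 22.96 and 45.3 CPM. Its groups overlapped through wild type replicate 1, with a log2 fold change of 0.59 ± 0.30 (edgeR adjusted p = 0.443). Summed over the 3 genes, type 1 transcripts were 51.0 ± 14.2 CPM (SD, n = 3) in wild type against 82.7 ± 22.7 CPM in clo/+.

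Type 5 collagen joins type 1 in the same fibrils and is known for limiting their diameter. The log2 fold changes of its 2 abundant chains differed in sign. COL5A2 was at 19.7, 9.84 and 16.2 CPM in wild type against 15.2, 25.3 and 30.7 CPM in clo/+, a log2 fold change of 0.63 ± 0.30 (edgeR adjusted p = 0.424). COL5A1 was at 29.3, 13.003 and 17.3 CPM in wild type against 12.05, 13.98 and 28.7 CPM in clo/+, a log2 fold change of -0.14 ± 0.34 (edgeR adjusted p = 0.898). Both pairs of groups overlapped. The COL5A1 to COL5A2 count ratio was 1.29 ± 0.21 in wild type and 0.76 ± 0.19 in clo/+, and its library values did not overlap.

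The remaining 7 fibrillar members, which include COL2A1_ENSDARG00000011407, col5a2b, col5a3a, the type 11 genes and col27a1b, were not tested in CD41+ cells. Their group means there lay between 0 and 2.37 CPM. COL2A1_ENSDARG00000011407 and col5a2b had 0 counts in all 3 wild type libraries.

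Type 4 transcripts summed to 68.8, 65.0 and 68.5 CPM in wild type against 50.4, 60.3 and 46.9 CPM in clo/+, which did not overlap. COL4A1, which with COL4A2 makes the most widespread basement membrane trimer, was at 46.5, 47.4 and 45.7 CPM in wild type against 32.4, 38.2 and 29.5 CPM in clo/+. Every clo/+ library was below every wild type library. The log2 fold change was -0.49 ± 0.21, or 1.41-fold lower, with an unadjusted p of 0.0279 and an edgeR adjusted p of 0.357. COL4A2 was at 19.1, 14.2 and 20.8 CPM in wild type against 16.6, 21.3 and 16.8 CPM in clo/+. Its groups overlapped fully, with a log2 fold change of 0.0041 ± 0.25 (95% interval -0.49 to 0.50). The col4a1 and col4a2 genes are neighbours in the RefSeq annotation of the GRCz12tu assembly, as are col4a3 with col4a4 and col4a5 with col4a6. In counts, the COL4A1 to COL4A2 ratio was 2.43, 3.33 and 2.199 in wild type and 1.95, 1.80 and 1.75 in clo/+, without overlap.

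The minor type 4 chains COL4A4, col4a5 and col4a6, known in mammals from specialised basement membranes such as those of the kidney filter and smooth muscle, had group means of 0 to 1.17 CPM over all 4 groups. Among the multiplexins, which sit in vascular and muscle basement membranes and whose ends release fragments that inhibit angiogenesis, only col15a1b passed the filter. It was at 6.96, 0.729 and 3.21 CPM in wild type against 2.49, 1.40 and 1.64 CPM in clo/+, overlapping (log2 fold change -0.96 ± 0.68, edgeR adjusted p = 0.581).

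Fibrillar genes made up 47.1%, 37.6% and 41.8% of collagen counts in wild type and 48.1%, 51.2% and 57.5% in clo/+. Basement membrane genes made up 29.4%, 38.0% and 36.7% in wild type and 27.6%, 27.8% and 17.2% in clo/+. Neither share overlapped between the genotypes. The type 4 to type 1 count ratio, which leaves out the remaining types of both classes, was 1.03, 1.66 and 1.46 in wild type. In clo/+ it was 0.79, 0.79 and 0.43. An exact two-sided permutation test gave p = 0.1 for this ratio, which is the smallest that 3 against 3 allows. Of 7 ratios compared, all chosen after the values were seen, 4 gave that p (adjusted p = 0.175): type 4 to type 1, COL4A1 to COL4A2, COL5A1 to COL5A2, and COL6A2 to col6a1.

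**Figure D2:**
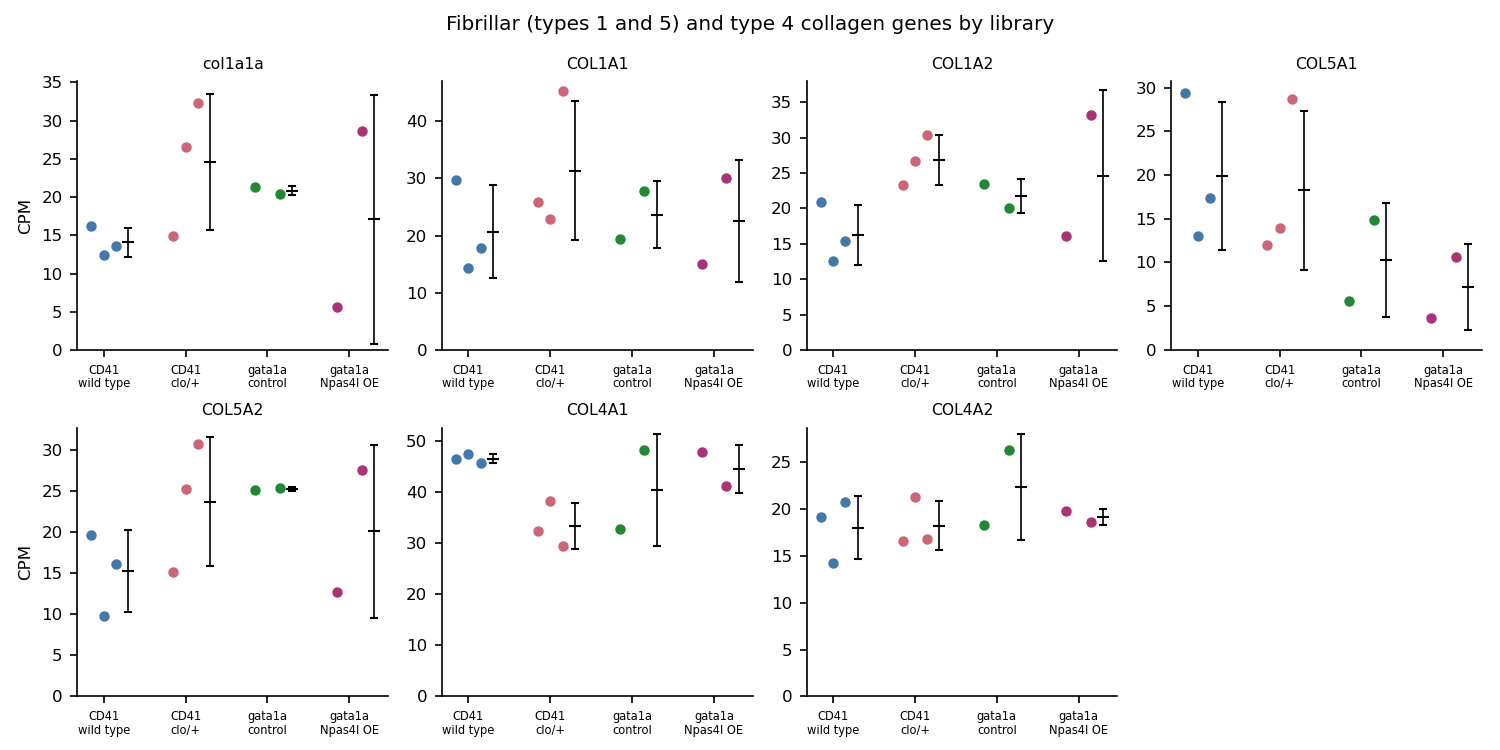
CPM of the 5 abundant fibrillar genes and of COL4A1 and COL4A2 in each library, with group means (short bars) and SD (error bars). COL1A2 is higher and COL4A1 lower in every clo/+ library than in every wild type library, and Npas4l OE replicate 1 is the lowest gata1a library for all 5 of these fibrillar genes.

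Type 6 collagen forms beaded microfibrils beside basement membranes, from an alpha-1, an alpha-2 and an alpha-3 or similar chain. Its 4 abundant genes differed in sign between clo/+ and wild type. For col6a4a, which encodes an alpha-3-like chain, values were 7.71, 7.90 and 8.83 CPM in wild type against 3.21, 3.39 and 7.08 CPM in clo/+. These groups did not overlap, although clo/+ replicate 3 came close to wild type. The log2 fold change was -0.86 ± 0.40 (unadjusted p = 0.0456, edgeR adjusted p = 0.404). COL6A2 was at 5.93, 5.10 and 6.88 CPM against 4.096, 3.59 and 5.81 CPM in clo/+, a log2 fold change of -0.42 ± 0.41. COL6A3 was at 12.003, 6.32 and 5.74 CPM against 10.7, 9.18 and 10.7 CPM, and col6a1 at 2.82, 3.65 and 3.90 CPM against 3.45, 3.89 and 5.94 CPM, each with a log2 fold change of 0.34. These last 3 genes overlapped between genotypes (edgeR adjusted p from 0.703 to 0.800).

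Transmembrane collagen 23 gave the largest positive log2 fold change among the tested collagens. Its gene col23a1b was at 4.74, 1.215 and 5.28 CPM in wild type against 5.86, 8.98 and 16.1 CPM in clo/+. The groups did not overlap, but the lowest clo/+ library lay close to the highest wild type library. The log2 fold change was 1.44 ± 0.49 (unadjusted p = 0.00794, edgeR adjusted p = 0.254). Without the filter on low counts this gene was called, the only collagen to be so. That setting called many more genes of any kind than the main fit did.

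Type 12 collagen coats fibrils and is linked to repair of injured tissue in fish. Of its 2 genes, COL12A1_ENSDARG00000078322 was at 19.1, 9.36 and 6.65 CPM in wild type against 9.08, 11.7 and 17.9 CPM in clo/+. The other, COL12A1_ENSDARG00000019601, was at 4.74, 4.50 and 1.03 CPM against 5.62, 2.60 and 7.08 CPM. Both overlapped, with log2 fold changes of 0.13 ± 0.37 and 0.57 ± 0.55. Paralogues can lose or exchange reads, so values of single copies are uncertain for COL12A1 and for the type 1 alpha-1 genes.

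Wild type replicate 2 was the lowest CD41 library for 6 of the 13 abundant members and for 4 of the 5 fibrillar ones. Clo/+ replicate 3 was the highest for 6 of 13 and also for 4 of 5 fibrillar ones. Thrombocyte markers summed to 3178 CPM in clo/+ replicate 3, the lowest of the CD41 libraries, and to 4685 to 5825 CPM in the others. Of the 9 tested, 2 were at positive and 7 at negative log2 fold changes in clo/+. With clo/+ replicate 3 left out, COL1A1 had a log2 fold change of 0.23 and col23a1b of 0.97, while COL4A1 stood at -0.41. Fibroblast and epicardium markers summed to 228 to 293 CPM in wild type against 249 to 386 CPM in clo/+, overlapping, with 6 of the 12 tested at positive log2 fold changes. Smooth muscle and pericyte markers, detected 9 of 9, summed to 2219 to 2487 CPM in wild type against 1057 to 2051 CPM in clo/+. Of the 8 tested, however, 5 were at positive and 3 at negative log2 fold changes, with a median of 0.31. Macrophage markers, detected 9 of 14, summed to 72.9 to 104 CPM and 124 to 163 CPM, and 8 of the 9 tested were at positive values. All 8 endothelial markers were at positive values too, with a median of 0.21. The part of any of these cells in the collagen values was not tested.

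In gata1a+ cells, no collagen gene passed the threshold between Npas4l OE and control either. Type 6 genes all lay at lower means in the libraries labelled Npas4l OE, whereas type 1 and type 4 genes had no common direction. The edgeR quasi-likelihood test called 0 of 20 tested collagens, against 0.0357% of all 14006 genes (5 genes), and DESeq2 called 0. At an unadjusted p under 0.05, 0 collagens were higher and 1 lower, where 6.11% and 9.36% of all genes were. The groups did not overlap for 0 higher and 4 lower collagens. With 2 libraries against 2, 24.1% and 23.7% of all tested genes were separated in those directions. The median log2 fold change was -0.25 over the 20 collagens and -0.010 over all genes, and 21 members were not tested.

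For type 6, col6a4a was at 12.6 and 15.1 CPM in control and 1.78 and 7.95 CPM in Npas4l OE. Both Npas4l OE libraries were below both controls, and they differed widely from each other. The log2 fold change was -1.51 ± 0.57 (unadjusted p = 0.0237, edgeR adjusted p = 0.246). It was called without the filter on low counts, a setting that called many more genes of any kind than the main fit did. The value was -0.83 without Npas4l OE replicate 1 (edgeR adjusted p = 0.790) and -2.96 without Npas4l OE replicate 2 (edgeR adjusted p = 0.0367). Each of these leaves a lone Npas4l OE library, with the spread taken from the other 3 groups, and the second rests on the library at 1.78 CPM. COL6A3 was at 32.8 and 30.4 CPM in control and 12.9 and 26.03 CPM in Npas4l OE. This gene too was separated, with a log2 fold change of -0.71 ± 0.34 (edgeR adjusted p = 0.359), which was -0.31 without Npas4l OE replicate 1.

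The alpha-1 and alpha-2 chains of type 6 are shorter and pair with the chains above. Values of col6a1 were 9.92 and 10.8 CPM in control and 7.61 and 8.57 CPM in Npas4l OE, separated at a log2 fold change of -0.37 ± 0.36. COL6A2 was at 9.67 and 17.4 CPM in control and 5.58 and 10.2 CPM in Npas4l OE, overlapping at a log2 fold change of -0.79 ± 0.43. Neither passed the test (edgeR adjusted p = 0.681 and 0.427). Summed type 6 transcripts were 65.0 and 73.7 CPM in control against 27.9 and 52.8 CPM in Npas4l OE, or 26.2% and 24.9% of collagen counts against 15.1% and 18.4%. The fibroblast and epicardium markers lay in the same order, at 406 to 410.4 CPM in control and 264 to 308 CPM in Npas4l OE, with 8 of the 10 tested at negative log2 fold changes. Cardiomyocyte markers did so as well, at 48578 to 60488 CPM and 28302 to 29408 CPM, and macrophage markers were at 189 to 368 CPM and 30.1 to 153 CPM. All 10 tested cardiomyocyte and all 8 tested macrophage markers were at negative values. Smooth muscle and pericyte markers summed higher in Npas4l OE, at 1691 to 2268 CPM in control and 2590 to 2672 CPM in Npas4l OE. Of the 7 tested, however, 2 were at positive and 5 at negative log2 fold changes. Endothelial markers overlapped, at 1505 to 1639 CPM and 1601 to 1746 CPM, with 7 of 8 at negative values. Thrombocyte markers summed to 8012 to 9187 CPM in control and 9731 to 10497 CPM in Npas4l OE. Of the 9 tested, 6 were at positive and 3 at negative log2 fold changes. Erythroid markers summed to 1001 to 1891 CPM in control and 911 to 968 CPM in Npas4l OE. Of the 6 tested, 1 was at a positive and 5 at negative log2 fold changes, with a median of -1.85. The part of these cells in the type 6 values was not tested.

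Type 1 genes differed more between the 2 Npas4l OE libraries than between the group means. Their sums were 64.2 and 68.2 CPM in control and 36.6 and 91.8 CPM in Npas4l OE, so that 1 library lay below and 1 above both controls. COL1A2 was at 23.4 and 20.01 CPM in control and 16.1 and 33.2 CPM in Npas4l OE. COL1A1 was at 19.5 and 27.8 CPM against 15.0 and 30.1 CPM. For col1a1a the values were 21.3 and 20.4 CPM against 5.58 and 28.6 CPM. The 3 type 1 log2 fold changes were 0.17 ± 0.35, -0.08 ± 0.37 and -0.29 ± 0.56, and that of COL1A1 was 0.11 with library size as the only scaling.

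The type 5 chains also overlapped between the groups. COL5A2 was at 25.1 and 25.4 CPM in control and 12.7 and 27.6 CPM in Npas4l OE. COL5A1 was at 5.63 and 14.9 CPM in control and 3.68 and 10.6 CPM in Npas4l OE. Their log2 fold changes were -0.34 ± 0.36 and -0.53 ± 0.58. Npas4l OE replicate 1 was the lowest gata1a library for all 5 abundant fibrillar genes and for 10 of the 13 abundant members, and Npas4l OE replicate 2 the highest for 4 of the 5. All 5 log2 fold changes were positive without Npas4l OE replicate 1 (0.028 to 0.58), and all 5 were negative without Npas4l OE replicate 2 (-1.90 to -0.43).

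Basement membrane genes overlapped between control and Npas4l OE. COL4A1 was at 32.7 and 48.2 CPM in control and 47.8 and 41.1 CPM in Npas4l OE (log2 fold change 0.12 ± 0.28). COL4A2 was at 18.4 and 26.3 CPM against 19.8 and 18.6 CPM (-0.23 ± 0.30). The COL4A1 to COL4A2 count ratio was 1.78 and 1.83 in control and 2.42 and 2.21 in Npas4l OE, a separation whose exact permutation p of 0.333 is the smallest that 2 against 2 allows. Multiplexin genes were measurable here. Values of col15a1b were 6.12 and 3.29 CPM in control and 6.72 and 5.58 CPM in Npas4l OE, those of col18a1a 3.18 and 3.42 CPM against 2.79 and 3.41 CPM, and those of col18a1b 2.33 and 4.34 CPM against 3.42 and 7.13 CPM. All 3 overlapped, with edgeR adjusted p from 0.652 to 0.960.

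Of the other members, col23a1b was at 10.4 and 9.87 CPM in control and 8.37 and 8.88 CPM in Npas4l OE, separated at a log2 fold change of -0.25 ± 0.36 (edgeR adjusted p = 0.799). COL12A1_ENSDARG00000078322 was at 2.82 and 3.82 CPM against 4.06 and 3.00 CPM. Its groups overlapped. The 95% interval of the log2 fold change ran from -0.60 to 1.35 for col15a1b and from -1.09 to 1.24 for COL12A1_ENSDARG00000078322, so differences of more than 2-fold were not excluded for either. The 4 tested members col16a1, col14a1b, col5a3a and col27a1b had log2 fold changes from -0.37 to 0.21.

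**Figure D3:**
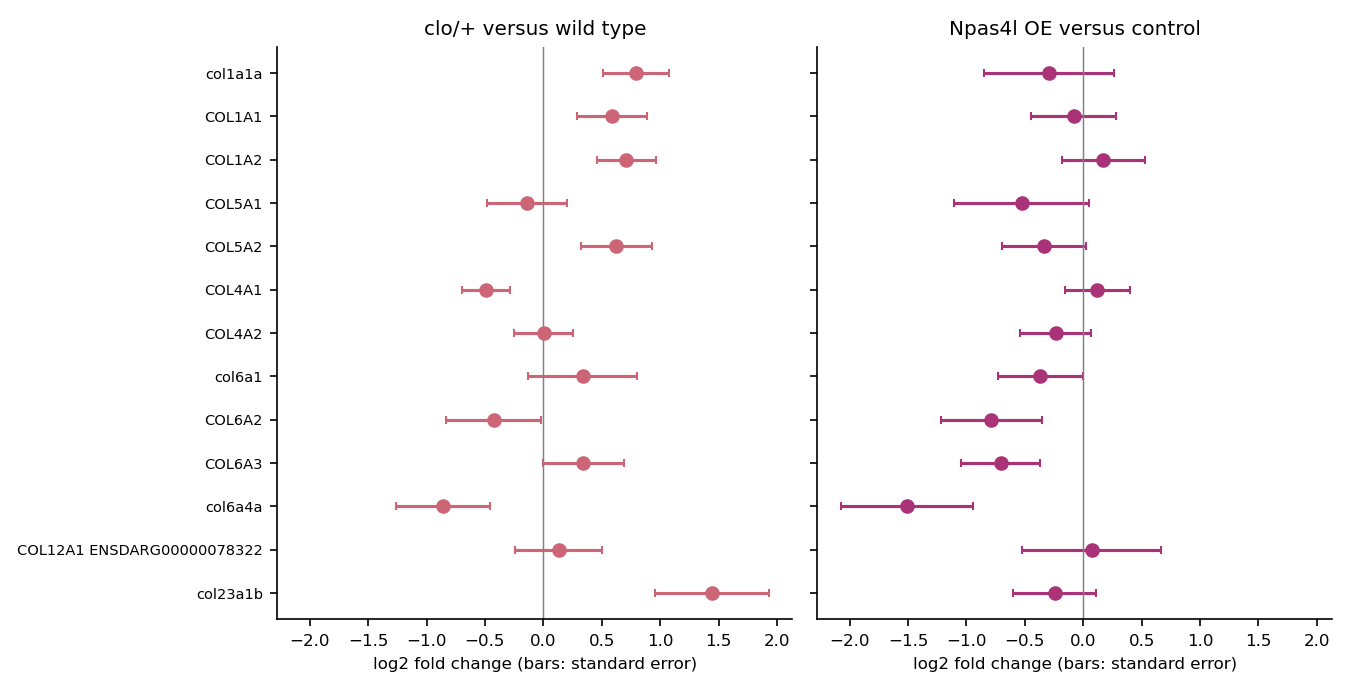
Log2 fold change of the 13 abundant collagen genes in clo/+ versus wild type (left) and Npas4l OE versus control (right), with bars for 1 standard error. The type 1 genes lie at 0.59 to 0.79 on the left, and the 4 type 6 genes lie at -0.37 to -1.51 on the right.

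Between the experiments, 3 type 6 genes were higher in the gata1a control than in the CD41 wild type cells, and both type 12 genes were higher in the CD41 cells. This comparison was added after the values were seen, and sort reporter, amputation, time, 4-HT and transgenes differ together and cannot be told apart. The npas4l level differed too, at 0.889 to 4.01 CPM in CD41 wild type against 42.1 and 30.3 CPM in control. Its log2 fold change was -4.03 (edgeR adjusted p = 3.02e-05). In a fit of all 10 libraries, edgeR called 2 collagens higher and 4 lower in CD41 wild type out of 25 tested, where 10.7% and 9.71% of all 15380 genes were called in those directions. The groups did not overlap for 3 higher and 12 lower collagens, where 24.4% and 24.2% of all genes were so separated.

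COL6A3 was 3.98-fold lower (log2 fold change -1.99 ± 0.34, edgeR adjusted p = 0.000559), and its 6 CD41 libraries, at 5.74 to 12.003 CPM, were all below the 4 gata1a libraries, at 12.9 to 32.8 CPM. The col6a1 gene was 2.99-fold lower (log2 fold change -1.58 ± 0.40, edgeR adjusted p = 0.00991). COL6A2 was 2.27-fold lower (-1.18 ± 0.40, edgeR adjusted p = 0.0459), a call lost with library size as the only scaling, without the low count filter, and without any of the wild type libraries or control replicate 2. Without control replicate 2, the col6a1 call was lost as well. The difference for col6a4a was -0.77 ± 0.48 and was not called.

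For type 12, COL12A1_ENSDARG00000078322 was 3.50-fold higher in CD41 wild type (log2 fold change 1.81 ± 0.49, edgeR adjusted p = 0.0135), with 6.65 to 19.1 CPM over the CD41 libraries and 2.82 to 4.06 CPM over the gata1a libraries. That call was lost without wild type replicate 1 or control replicate 1. The second gene, COL12A1_ENSDARG00000019601, had 0 counts in all 4 gata1a libraries and 1.03 to 7.08 CPM in the CD41 libraries. Against a floor of 3 counts over the 2 controls it was at least 17.99-fold higher in CD41 wild type (edgeR adjusted p = 0.00197). This gene and col18a1b, also called, fall outside the naming rule and were picked with their values in view. The wild type values of col18a1b were 0, 0.243 and 0 CPM, against 0.161, 1.20 and 1.77 CPM in clo/+ and 2.33 to 7.13 CPM in gata1a cells (edgeR adjusted p = 0.00426 for wild type against control).

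The gene col23a1b was at 1.215 to 5.28 CPM in wild type against 10.4 and 9.87 CPM in control, a log2 fold change of -1.44 ± 0.50 that just missed the threshold (edgeR adjusted p = 0.0504). No type 1 or type 4 gene was called, although col1a1a was without overlap, at 12.4 to 16.2 CPM in wild type against 20.4 and 21.3 CPM in control. COL4A1 and COL4A2 had log2 fold changes of 0.20 ± 0.24 and -0.31 ± 0.27, and the type 1 genes lay between -0.57 and -0.20. Fibroblast and epicardium markers summed to 228 to 293 CPM in CD41 wild type against 406 to 410.4 CPM in control, but 7 of the 13 tested were at positive and 6 at negative log2 fold changes, with 3 called each way. Over all genes tested, 10.7% were called higher and 9.71% lower in CD41 wild type. Of cardiomyocyte markers, 10 of 10 tested were at negative values and 5 were called lower. For endothelial markers these counts were 7 of 8 and 4, and for macrophage markers 6 of 9 and 4. Erythroid markers went the other way, with mean sums of 10074 CPM in CD41 wild type and 1446 CPM in control. Of the 6 tested, 5 were called higher, as were 2 of 2 neutrophil markers. Thrombocyte markers had mean sums of 5334 CPM in CD41 wild type and 8600 CPM in control, with 2 called higher and 4 lower. The part of these cells in the type 6 difference was not tested.

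**Figure D4:**
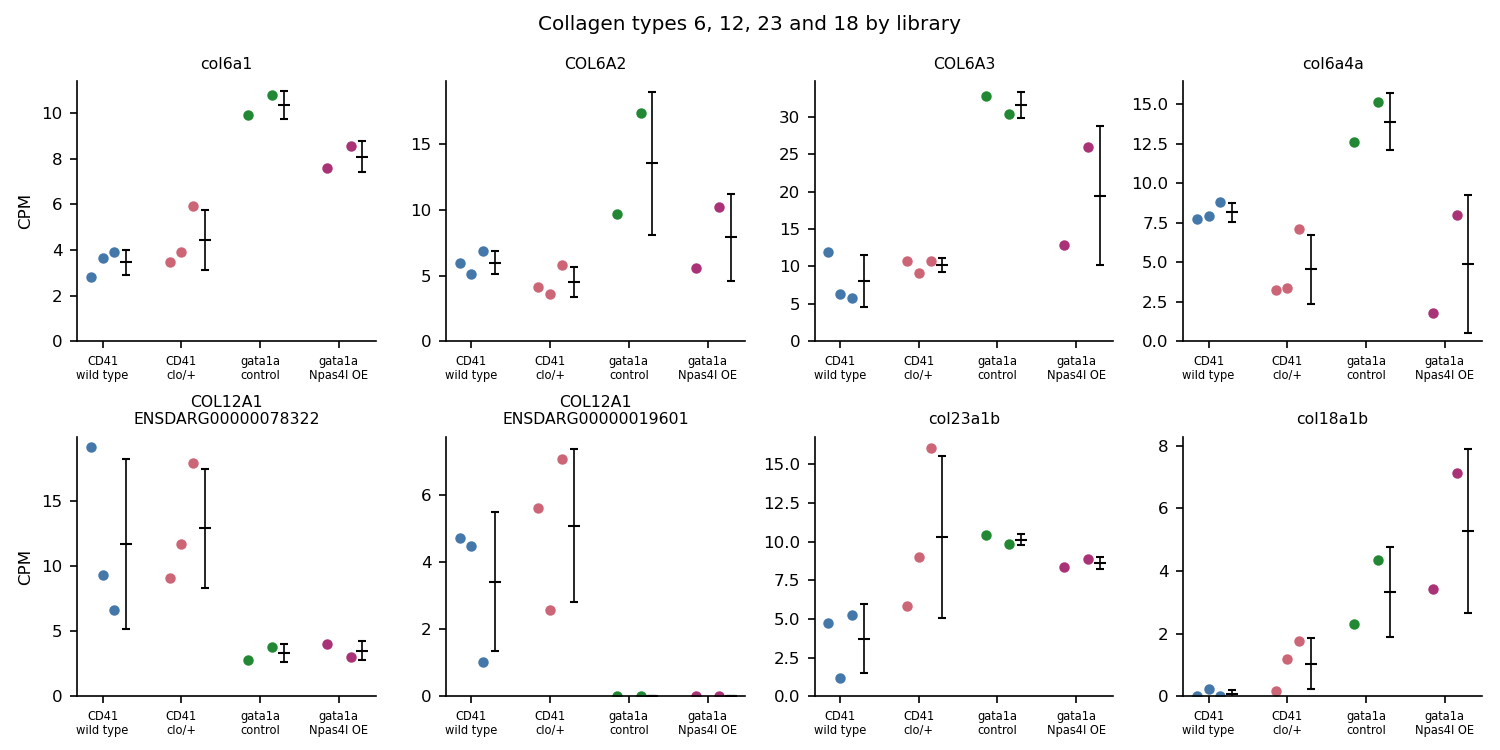
CPM of type 6, type 12, type 23 and type 18 collagen genes in each library, with group means (short bars) and SD (error bars). COL6A3 is at 30.4 and 32.8 CPM in the gata1a control and at most 12.003 CPM in CD41 libraries, and COL12A1_ENSDARG00000019601 has 0 counts in all 4 gata1a libraries.

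Genes that make, link, cut and bind collagen, or stand beside type 4, were counted from 5 lists. DCN and LUM are also among the fibroblast markers, GP1BB and gp9 among the thrombocyte markers, and mmp13a among the neutrophil markers. Collagen chains are hydroxylated on proline and lysine in the endoplasmic reticulum before the helix folds. Of 22 genes for collagen making, 15 were tested in the CD41 experiment and 3 were higher and 1 lower in clo/+ at an unadjusted p under 0.05, where 7.19% and 4.79% of all tested genes were. None passed adjustment with the filtered edgeR fit. P4HA1, a prolyl 4-hydroxylase subunit, was at 11.1, 15.8 and 24.7 CPM in wild type against 37.9, 37.8 and 51.6 CPM in clo/+. PLOD1, a lysyl hydroxylase, was at 17.9, 15.8 and 23.2 CPM in wild type against 41.3, 42.7 and 45.4 CPM in clo/+. Both genes were separated without overlap. Their log2 fold changes were 1.29 ± 0.27 and 1.17 ± 0.22, with edgeR adjusted p of 0.0997 and 0.0891. DESeq2 called both (adjusted p = 0.00707 and 0.00128), a setting that called many more genes of any kind than the main fit did.

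P4HA2, another prolyl 4-hydroxylase subunit, was at 6.67, 6.32 and 12.96 CPM in wild type against 13.7, 16.7 and 24.02 CPM in clo/+, a log2 fold change of 1.05 ± 0.33 (edgeR adjusted p = 0.233). It was much higher in gata1a cells, at 542 and 306 CPM in control and 745 and 585 CPM in Npas4l OE, and CD41 wild type differed from control by a log2 fold change of -5.61 ± 0.35 (edgeR adjusted p = 1.16e-08). P4HB, the shared subunit of the prolyl hydroxylases and a general disulfide isomerase, went the other way between experiments, at 124 to 205 CPM in wild type against 44.6 and 52.9 CPM in control (log2 fold change 1.76 ± 0.31, edgeR adjusted p = 0.000591). The cyclophilin PPIB, a folding helper, was at 269 to 300.3 CPM in wild type against 98.1 and 114 CPM in control. Both genes were at lower means in clo/+ than in wild type. P4HB was the 1 gene of this list lower there by the unadjusted p, with overlapping groups (log2 fold change -0.62 ± 0.26, edgeR adjusted p = 0.365). PPIB was lower without overlap (-0.39 ± 0.25, edgeR adjusted p = 0.539). Of the 15 genes tested in clo/+, 10 were at positive and 5 at negative log2 fold changes.

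**Figure D5:**
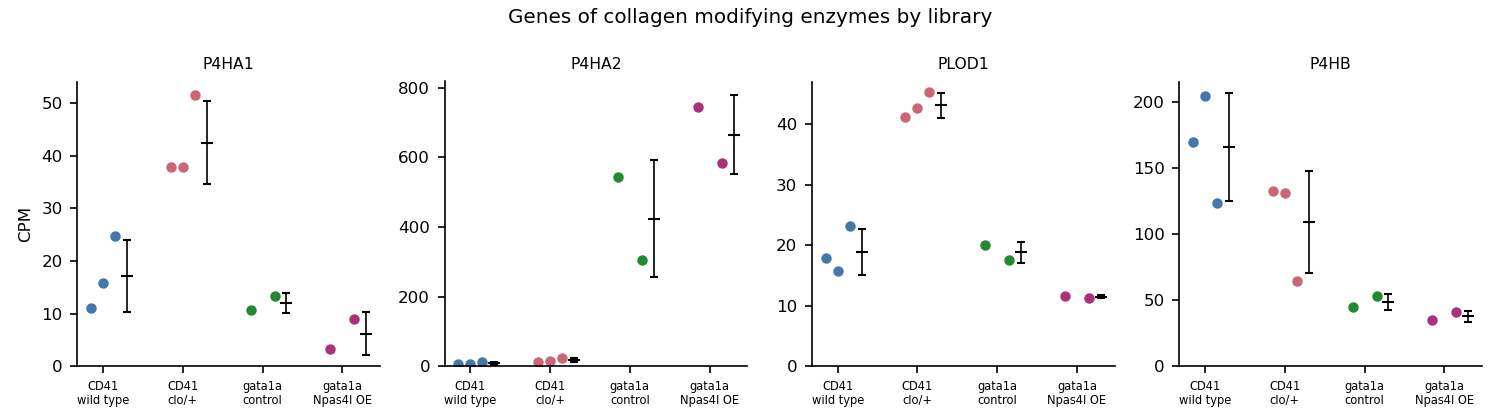
CPM of the collagen modifying enzyme genes P4HA1, P4HA2, PLOD1 and P4HB in each library, with group means (short bars) and SD (error bars). P4HA1 and PLOD1 are higher in every clo/+ library than in every wild type library, and P4HA2 lies at 306 to 745 CPM in gata1a cells against 6.32 to 24.02 CPM in CD41 cells.

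In Npas4l OE against control, 18 genes for collagen making were tested, with 2 higher and 1 lower at an unadjusted p under 0.05, where 6.11% and 9.36% of all tested genes were, and 0 after adjustment by edgeR. P4HA2 had a log2 fold change of 0.64 ± 0.28 and PLOD3, which adds sugars to hydroxylysine, of 0.66 ± 0.27. PLOD1 was at 20.1 and 17.6 CPM in control and 11.7 and 11.4 CPM in Npas4l OE, a log2 fold change of -0.72 ± 0.30. Its sign was opposite to that in clo/+, and that difference between the experiments was not tested.

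The list for collagen crosslinking and trimming holds enzymes and also genes of other matrix proteins, such as SPARC, DCN and pcolcea. At an unadjusted p under 0.05, it gave 2 higher and 0 lower of 12 tested in clo/+. In Npas4l OE it gave 1 higher and 5 lower of 12, and SPARC, DCN and pcolcea were among the lower. The shares of all tested genes were 7.19% and 4.79% in clo/+ and 6.11% and 9.36% in Npas4l OE. None passed adjustment with edgeR. In clo/+, LOXL2, a lysyl oxidase known in mammals to crosslink type 4 collagen, was at 1.04, 0.365 and 0.688 CPM in wild type against 1.45, 3.29 and 5.18 CPM in clo/+ (log2 fold change 2.22 ± 0.74, edgeR adjusted p = 0.246). These values rest on few reads, with 171 counts over all libraries. The other higher gene was loxl2a, with 536 counts and overlapping groups (log2 fold change 1.29 ± 0.43, edgeR adjusted p = 0.246). In Npas4l OE the lower genes named were LOXL1, at 56.4 and 85.8 CPM in control and 45.9 and 40.9 CPM in Npas4l OE, and SPARC, a collagen-binding matrix glycoprotein, at 67.7 and 45.2 CPM against 30.7 and 39.7 CPM. The fibril regulator DCN was at 60.8 and 63.2 CPM against 39.6 and 46.8 CPM, and pcolcea, which enhances removal of the procollagen end, at 23.02 and 26.7 CPM against 10.8 and 17.5 CPM. Their 4 log2 fold changes lay between -0.54 and -0.83. Transglutaminase TGM2_ENSDARG00000074094 was the higher one, at 0.60 ± 0.26.

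Of the genes for collagen breakdown, 16 were tested in clo/+ with 1 higher and 1 lower, and 14 in Npas4l OE with 0 higher and 3 lower, at an unadjusted p under 0.05. Over all tested genes it was 7.19% and 4.79% in clo/+, and 6.11% and 9.36% in Npas4l OE. After adjustment by edgeR 0 passed in both. CTSB, a lysosomal cysteine protease, was at 726 and 979 CPM in control and 165 and 309 CPM in Npas4l OE. Both Npas4l OE libraries were far below both controls, with a log2 fold change of -1.86 ± 0.31 (edgeR adjusted p = 0.0702). Its relative ctsla was at 331 and 329 CPM against 129.7 and 189 CPM (log2 fold change -1.06 ± 0.24, edgeR adjusted p = 0.118). DESeq2 called both CTSB (adjusted p = 1.06e-06) and ctsla (adjusted p = 0.00375). That setting called many more genes of any kind than the main fit did. MMP2, a gelatinase that also cuts type 4 collagen, was at 50.4 and 41.3 CPM against 20.3 and 32.0 CPM (-0.82 ± 0.29). CTSK, in mammals the collagen-degrading cathepsin of bone, was at 792 and 662 CPM against 704 and 724 CPM, overlapping. In clo/+ the named gene was PEPD, which releases proline from collagen peptides, at 6.82, 6.44 and 10.2 CPM in wild type against 13.5, 19.3 and 15.3 CPM (log2 fold change 1.02 ± 0.30, edgeR adjusted p = 0.214). The 1 lower gene in clo/+ was MMP9, at 68.9, 107 and 39.9 CPM in wild type against 55.5, 32.5 and 44.1 CPM. Its groups overlapped (log2 fold change -0.72 ± 0.29, edgeR adjusted p = 0.334).

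The list of receptor genes for collagen also holds vwf, the gene of a secreted factor and not of a receptor. At an unadjusted p under 0.05, this list gave 2 higher and 2 lower of 12 tested in clo/+. In Npas4l OE it gave 3 higher and 3 lower of 11. The higher genes in clo/+ were vwf and ITGB1_ENSDARG00000104484, and the lower genes in Npas4l OE were vwf, gp9 and ITGA3. Beside these counts stand 7.19% and 4.79% of all tested genes in clo/+, and 6.11% and 9.36% in Npas4l OE. None passed adjustment with edgeR. ITGA2, in mammals the collagen-binding integrin chain of platelets, was at 53.8, 58.5 and 49.1 CPM in wild type against 42.3, 46.6 and 21.5 CPM in clo/+. In gata1a cells it was at 60.1 and 81.8 CPM in control and 134 and 117 CPM in Npas4l OE. The log2 fold changes were -0.56 ± 0.25 and 0.81 ± 0.25 (edgeR adjusted p = 0.385 and 0.182). Its copy itga2.3 overlapped in both comparisons, with log2 fold changes of -0.048 ± 0.43 and -0.23 ± 0.56. A further copy, itga2.1, was not tested in either. ITGA1, a related chain with a preference for type 4 collagen, had -0.52 ± 0.23 and 0.60 ± 0.24. Their partner chain gene ITGB1_ENSDARG00000104484 had log2 fold changes of 0.65 ± 0.24 in clo/+ and 0.49 ± 0.24 in Npas4l OE, higher without overlap in both. Its copy ITGB1_ENSDARG00000071863, given for comparison after its values were seen, had -0.31 ± 0.20 and -0.56 ± 0.29, lower without overlap in both.

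Of the platelet glycoprotein genes, whose complex binds collagen through von Willebrand factor, GP1BB had log2 fold changes of 0.07 ± 0.23 in clo/+ and 0.57 ± 0.20 in Npas4l OE. For gp9 they were -0.35 ± 0.22 and -0.64 ± 0.27. The vwf gene was at 81.8 and 86.8 CPM in control and 35.5 and 53.6 CPM in Npas4l OE, a log2 fold change of -0.93 ± 0.26 (edgeR adjusted p = 0.161, DESeq2 adjusted p = 0.0450). DESeq2 called many more genes of any kind than the main fit did. In clo/+ the log2 fold change of vwf was 0.91 ± 0.34, with overlapping groups (edgeR adjusted p = 0.289).

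Basement membrane partners of type 4 gave 1 higher and 1 lower of 17 tested in clo/+ and 0 higher and 4 lower of 15 in Npas4l OE, at an unadjusted p under 0.05, with 0 after adjustment by edgeR. All tested genes gave 7.19% and 4.79% in clo/+, and 6.11% and 9.36% in Npas4l OE. In clo/+, lamc1, the common laminin gamma chain, was at 32.2, 25.03 and 29.1 CPM in wild type against 23.2, 17.97 and 20.9 CPM in clo/+. Like COL4A1, it was lower in every clo/+ library (log2 fold change -0.49 ± 0.23, edgeR adjusted p = 0.408). PXDN, which forms sulfilimine bonds between type 4 networks, was at 8.59, 4.13 and 8.60 CPM against 12.9, 11.1 and 15.0 CPM (0.86 ± 0.34). In Npas4l OE, the heparan sulfate proteoglycan genes AGRN and HSPG2, the laminin gene LAMB2 and the hemicentin gene HMCN1 were separated below control, with log2 fold changes of -0.98, -0.78, -0.97 and -1.35. The laminin beta chain gene LAMB1_ENSDARG00000045524 overlapped in both comparisons, with log2 fold changes of -0.27 ± 0.22 in clo/+ and 0.31 ± 0.28 in Npas4l OE. AGRN was at 42.1 and 56.0 CPM in control and 27.9 and 22.4 CPM in Npas4l OE (edgeR adjusted p = 0.163). The median log2 fold change of this list was -0.60 in Npas4l OE, against -0.010 over all genes, while that of the 2 tested type 4 genes was -0.057.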

How the data were processed

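The authors deposited 1 table of raw read counts per library, with 32520 gene identifiers and 5 summary lines. The submitters' processing notes name FastQC 0.11.4, Trim Galore 0.6.0, HISAT2 2.1.0, DESeq2 1.22.1 and GRCz11. The counter and its use of strand are not given in the sources used here. Per the labels' protocols, oligo-dT primed cDNA was amplified and tagmented, with no molecular identifiers mentioned, so floors cover counting error only. The 95% intervals of log2 fold changes come from the SE of the fit, which includes the spread between samples. They use a normal quantile, so with so few libraries they are narrower than the quasi-likelihood test implies. Summary lines (50.7% to 59.0% of reads) were left out, and reads with several alignments (16.9% to 20.7%) were not given to genes, so paralogues can lose reads.

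Symbols for 29201 identifiers came from a name table. Each experiment was fitted with edgeR 4.0.16 in R 4.3.3 (filterByExpr, minimum count 10 and minimum total 15, TMM, quasi-likelihood test, two-sided). Adjusted p are Benjamini-Hochberg values over all genes tested, with a threshold of 0.05. SE is the log2 fold change over the square root of F. CPM uses TMM factors over all 10 libraries. No gene lengths were used, so levels are not compared between genes. CD41 wild type was also tested against the gata1a control in 1 fit of all libraries. Alternatives were RLE or library size scaling, no filter, DESeq2 1.42.0, 1 fit for both experiments, a replicate block and each replicate left out. The functions were tested on simulated counts.

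Members and lists were chosen with earlier results of these data known. Genes named with values were members with a mean of at least 10 CPM in some group, or with an adjusted p under 0.05 in the study's own comparisons. Of the lists, named genes were those with an unadjusted p under 0.05 and no overlap, at most 5 per list and comparison by mean CPM, plus the 3 of highest mean CPM. Other members given with values were chosen after their values were seen. No sequence is shown and no coordinates are given. No pair of replicates was identical, and their counts differed by more than sampling noise.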

Additional observations from a re-analysis of the deposited data

How the results depend on the processing

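In clo/+ versus wild type, edgeR called 2 genes, but 211 without the low count filter, 132 with DESeq2, 1 in 1 fit of all 10 libraries and 0 to 17 with a replicate left out. Of collagens, 0 were called, 1 without the filter (col23a1b), and 0 to 0 with a replicate left out. Their median log2 fold change of 0.34 ranged from 0.13 to 0.72 then. In Npas4l OE versus control, 5 genes were called, 2 with library size scaling, 648 without the filter, 380 with DESeq2, 110 in 1 fit and 16 to 164 with a replicate left out. Of collagens, 0 were called, 1 without the filter (col6a4a), and 0 to 1 with a replicate left out. The cause was not tested. In CD41 wild type versus gata1a control, 1786 to 2738 genes and 4 to 7 collagens were called with a replicate left out, against 3137 and 6. Their median of -0.42 ranged from -0.76 to -0.026, the last without control replicate 2.

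With the replicate number as a block, 120 genes were called in clo/+ and 187 in Npas4l OE, and 0 collagens in both. Same-numbered CD41 libraries correlated at 0.053, 0.17 and 0.21 in their deviations, each best with its own number, which is a hint from the data and not a pairing by design. In gata1a cells it was 0.10 for both of the 2 pairs. This is a single value, because with 2 libraries a group the deviations mirror each other. P4HA1 and PLOD1 in clo/+, and CTSB and ctsla in Npas4l OE, were called under the block, with DESeq2 and without the filter.

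Library size scaling moved the median of all genes by 0.19 in Npas4l OE, and the log2 fold change of COL1A1 to 0.11. It moved the mean summed CPM of basement membrane collagens in Npas4l OE from 79.2 to 84.6 and that of other collagens in control from 90.7 to 85.8. Under the main TMM scaling, type 4 alone summed to 64.7 CPM in Npas4l OE.

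Signs that turned with a replicate left out were as follows. In clo/+ the range was -0.18 to 0.68 for COL12A1_ENSDARG00000078322, -0.14 to 0.13 for COL4A2 and -0.62 to 0.26 for COL5A1. In Npas4l OE it was -0.17 to 0.31 for COL12A1_ENSDARG00000078322, -0.66 to 0.32 for COL1A1, -1.90 to 0.43 for col1a1a, -0.43 to 0.58 for COL1A2, -0.13 to 0.44 for COL4A1, -0.47 to 0.059 for COL4A2, -1.47 to 0.35 for COL5A1 and -0.995 to 0.098 for COL5A2. In CD41 wild type versus control it was -0.54 to 0.082 for COL1A1 and -0.055 to 0.51 for COL4A1. At 2 or 3 libraries a group and at most 2770 collagen counts a library, 1 library decides such values. Leaving out 1 of 2 libraries leaves a lone one, assumed to vary like the other groups. Members under a few CPM rest on few reads.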

Other observations

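A few members with low counts, chosen after their values were seen, were highest in 1 library. COL11A1, a fibrillar chain best known from cartilage, was at 3.10 CPM in Npas4l OE replicate 2 and had 0 counts in the other 3 gata1a libraries. COL2A1_ENSDARG00000011407, the main cartilage collagen, was at 2.37 CPM in control replicate 2 and at most 0.885 CPM elsewhere. In wild type replicate 1, col27a1b was at 5.33 CPM against 0.729 and 1.03 CPM in the other 2 wild type libraries. By contrast, the FACIT gene col16a1 was at 4.53 and 3.16 CPM in control, 3.17 and 3.31 CPM in Npas4l OE, and 0 to 1.93 CPM in the CD41 libraries.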
